A study of Mus musculus with 10 samples.

Results

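Neutrophils were examined among the immune cells of SW1 tumors, a mouse melanoma model, profiled by single-cell RNA sequencing (scRNAseq). A barcode was kept when 200 or more genes were detected and mt- genes gave no more than 10% of its UMIs (unique molecular identifiers, each standing for 1 captured transcript). It was then called a neutrophil when S100a8 and S100a9 together gave 10 or more UMIs, C1qa, C1qb and C1qc together gave no more than 5, and Cd3e, Cd3d and Cd3g gave 0. This rule found 92 neutrophils among 36440 kept barcodes of 41936 in all, or 0.252%. S100a8, S100a9, the C1q genes and the Cd3 genes therefore chose the members, and their levels, like those of every gene set against other barcodes here, are given as a description.

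Female C3H/HeJ mice, 4 to 6 weeks old, carried subcutaneous SW1 tumors in the right flank, which the labels describe as growing for 10 days before treatment, whereas the study's methods give a longer period. The drinking water was then plain (control) or held L-fucose (L-fuc), a dietary sugar, given ad libitum at a dose that 1 protocol text of the labels writes as 100 mM and another as nM. CD45+ cells were sorted from the tumors, pooled over mice and run as 1 scRNAseq library per condition. Values for the 5 libraries are given in the order of pretreatment (day 0), then control and L-fuc at day 7, then control and L-fuc at day 21. The labels disagree on the number of mice in a pool, and all groups share the strain, which carries a loss-of-function allele of Tlr4, the receptor for bacterial lipopolysaccharide.

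Neutrophils are short-lived granulocytes made in the bone marrow under G-CSF, which acts through its receptor Csf3r. They fill their granules in waves during maturation, enter blood, and reach tissue through the chemokine receptor Cxcr2 and adhesion molecules. In tumors they release chemokines and cytokines such as Cxcl2 and Il1b, and both tumor-promoting and tumor-restraining roles are known for them.

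The pretreatment library held 3 neutrophils, the day 7 libraries 21 (control) and 43 (L-fuc), and the day 21 libraries 19 (control) and 6 (L-fuc). With 1 pooled library per condition there is no replicate, so no difference between conditions was tested, and the 95% intervals given cover counting error only. The libraries held 14439185, 119047810, 88986101, 21727157 and 16589803 UMIs over all barcodes, in the same order. The median neutrophil held 2178 UMIs (range 600 to 32630). By library the median was 2693, 1754, 1816, 2835 and 3001.5 UMIs, against 4571, 4922.5, 2959, 4176 and 2295 UMIs over all kept barcodes, so neutrophils were shallower than the rest except in L-fuc day 21. Levels below are the UMIs of a gene over all neutrophils of 1 library, expressed per 1000000 UMIs of those cells (CPM), and rest on 7969, 63516, 111637, 81330 and 19244 UMIs.

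**Figure D1:**
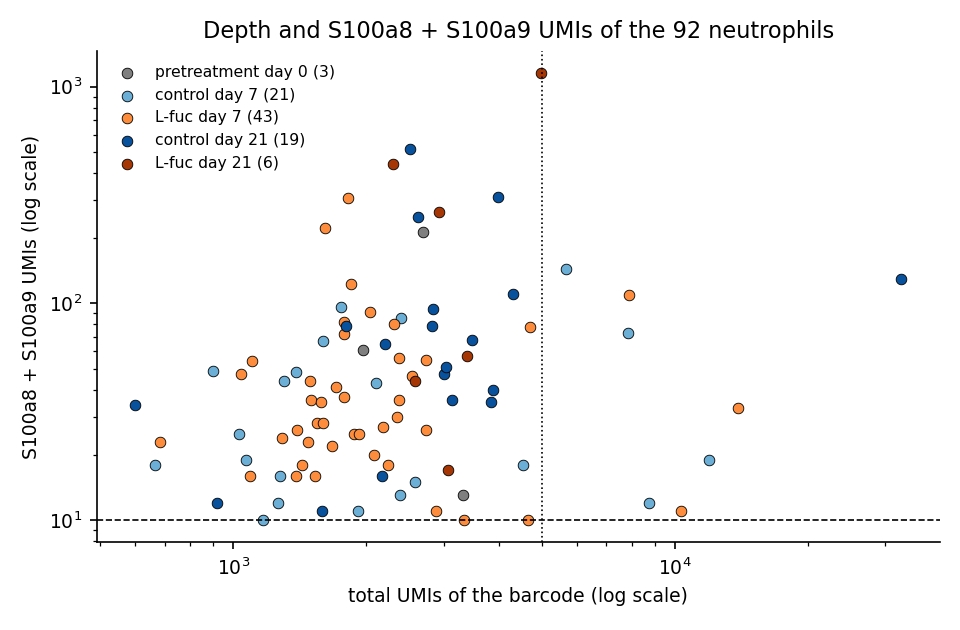
Each point is 1 neutrophil, with its total UMIs on the x axis and its S100a8 plus S100a9 UMIs on the y axis, both on log scales, colored by library. The dashed line is the limit of 10 UMIs in the rule and the dotted line marks 5000 UMIs. Of the 92 neutrophils, 8 lie beyond 5000 UMIs, 4 of them in control day 7.

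Several libraries stood apart, and this touches each comparison below. In control day 7, 4 of the 21 neutrophils had more than 5000 UMIs and held 53.8% of the summed UMIs and 82.8% of the UMIs of Sparc, a matrix protein gene that led the tumor cell list. The tumor cell list summed to 0, 3385, 323, 1377 and 0 CPM in the neutrophils of the 5 libraries (in the order above) against 1822, 4154, 3225, 2966 and 2398 CPM in all other kept barcodes, with Sparc its most abundant gene at 267 UMIs and the pigment genes Mlana, Pmel, Dct and Tyr at 0. A single neutrophil of control day 21 with 32630 UMIs held 40.1% of that library's summed UMIs and 80 of its 82 Sparc UMIs. A UMI of Ptprc, which encodes the sorted antigen CD45, was present in 3 of 3, 7 of 21, 35 of 43, 18 of 19 and 5 of 6 neutrophils, so control day 7 was low on this marker at 33.3% against 81.4% in L-fuc day 7. The red cell list was high in L-fuc day 7 alone: it summed to 0, 220, 23048, 0 and 0 CPM, with Hbb-bs, a beta globin, its most abundant gene at 1856 UMIs, and other kept barcodes held 0.348, 2153, 7847, 402 and 5.92 CPM. Gm42418, a locus that overlaps ribosomal RNA, gave 6274, 105155, 105458, 17546 and 48067 CPM. Mitochondrial (mt-) genes gave a median of 0.0508%, 1.22%, 0.549%, 0.330% and 0.0667% of a neutrophil's UMIs, highest in control day 7. The part of tumor cell genes, globins, Gm42418, mt- genes and depth in the results below was not tested. Shares of genes past the fold, and most list medians, are also given for the 84 neutrophils of at most 5000 UMIs. No 2 libraries shared a neutrophil barcode, although 3 neutrophil barcodes were also kept in another library and 1 pair of libraries shared 324 kept barcodes.

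The name was checked against genes outside the rule. Each of the 92 carried a UMI of Csf3r, Mmp9, Cxcr2, Retnlg or Il1r2, and each held at least 3 of 20 further neutrophil genes, with a median of 9 and a maximum of 16. The first of these checks separates little, since 50 of the 52 barcodes left out by C1q and 18 of the 19 left out by 2 or more Cd3 UMIs alone passed it too. Csf3r was 945 CPM over the 92 against 172 and 134 CPM in those barcodes. Csf3r was detected in 76 of 92 (82.6%) against 1.16% of T cell barcodes, and Il1r2, a decoy receptor for IL-1, in 83 against 5.47% of T cell barcodes, which were deeper in each library (medians of 3229 to 7939 UMIs). Msrb1 was detected in 87, Mxd1 in 80, Hcar2 in 76, Retnlg in 63, G0s2 in 60, Mmp9 in 32 and Cxcr2 in 29. In T cell barcodes Msrb1 was detected in 25.1% and Mxd1 in 19.6%, and the other genes of that sentence in 0.290% to 2.06%. Pglyrp1 and Slpi, also among the 20, were detected in 24.7% and 12.7% of T cell barcodes. The count of at least 3 of 20 thus rests in part on genes that separate less. Ly6g, the surface antigen often used to sort mouse neutrophils, was detected in only 3. In the matched T cell receptor libraries 0 of the 92 had a receptor contig, which allows a share of up to 3.26% (3 counts of the total), whereas 1540 of 2761 T cell barcodes had one (55.8%), 9 of 5879 macrophage barcodes (0.153%) and 0 of 248 monocyte barcodes. Since the rule required 0 Cd3 UMIs, the contrast with T cell barcodes was in part fixed by the choice of members.

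Markers of other cell types were also read, since the gate can hold them. The macrophage list summed to 0, 677, 681, 246 and 260 CPM against 28641, 17241, 18163, 28701 and 22645 CPM in macrophage barcodes, with Apoe its most abundant gene at 39 UMIs. This list holds C1qa, C1qb and C1qc, which the rule capped at 5 UMIs and the macrophage gate required above 5. That contrast was therefore in part fixed by the choice of barcodes on both sides. The monocyte list summed to 251, 315, 1541, 258 and 572 CPM with Plac8 leading at 98 UMIs and Vcan at 0, so it was highest in L-fuc day 7. The T cell list summed to 627, 94.5, 71.7, 0 and 0 CPM, with Cd4 at 0 and with Cd3e, Cd3d and Cd3g held at 0 by the rule, so that its low sum was in part fixed by the choice of members. The B cell list summed to 2133, 31.5, 224, 0 and 52.0 CPM, and its 17 UMIs in the pretreatment library all came from 1 neutrophil. In that library 1 neutrophil carried 30 UMIs of Cd74 and 22 UMIs of other-cell genes in all. The dendritic cell list summed to 251, 441, 394, 492 and 104 CPM against 431, 230, 269, 405 and 378 CPM in all other kept barcodes, so in the middle 3 libraries it was higher in the neutrophils. It was found in 22 of the 92, with Fscn1, an actin-bundling protein, its most abundant gene at 46 UMIs and the defining genes Xcr1 and Clec9a at 0, and its part in the results was not tested. The fibroblast list summed to 0, 157, 8.96, 24.6 and 0 CPM, led by Lum at 6 UMIs, and the endothelial list to 0, 15.7, 17.9, 12.3 and 0 CPM, led by Pecam1 at 3 UMIs. The NK cell list summed to 0, 110, 53.8, 12.3 and 0 CPM, and the eosinophil and platelet lists to 1 UMI each. The mast cell and basophil list summed to 126, 378, 502, 295 and 2442 CPM, led by Ifitm1, a gene that neutrophils can express too. Other-cell genes, wherever counted here, are the T cell, NK cell, B cell, mast cell and basophil, and tumor cell lists, so they include Ifitm1.

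At the limit of the rule, 10 neutrophils had 10 to 12 UMIs of S100a8 plus S100a9, and 19 kept barcodes with 7 to 9 UMIs were left out, all of which carried a further neutrophil marker, with Csf3r at 667 CPM and Il1r2 at 1914 CPM. C1q UMIs of 3 to 5 were found in 7 neutrophils, and 4 barcodes were left out with 6 to 8. Among barcodes within the C1q limit, Cd3 removed 13 with exactly 1 UMI, among which Csf3r was 694 CPM and 0 had a receptor contig, and 19 with 2 or more, among which Csf3r was 134 CPM and 8 had a contig. In all, 84 of 176 kept barcodes that reached the S100 limit were left out, 52 by C1q, 60 by Cd3 and 28 of them by both. No doublet caller was run.

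The genes that set neutrophils apart from all other kept barcodes were listed next. Of 794 genes with enough UMIs, 63 (7.93%) were at least 5-fold higher in the neutrophils in each of the 5 libraries. S100a9 and S100a8, subunits of the calprotectin complex that chelates metal ions, led at 182-fold to 4549-fold and 122-fold to 3202-fold, as the rule fixed. Next came G0s2, an inhibitor of lipid breakdown (75.8-fold to 627-fold), Il1r2 (73.0-fold to 126-fold), Hcar2, a receptor for ketone bodies and niacin (48.1-fold to 100-fold), and Retnlg, a secreted resistin-like protein (35.9-fold to 2031-fold). Slc7a11, the cystine transporter, was 31.2-fold to 54.0-fold higher, Csf3r 25.7-fold to 78.7-fold, and Clec4e, a receptor for damaged cells and mycobacterial lipid, 20.9-fold to 65.0-fold. Clec4d, Hdc, Ptafr, Stfa2l1, Tnfaip2, Cxcl2, Mxd1, Pglyrp1, Pim1, Trem1 and Plaur completed the first 20, with a lowest ratio of 20.5 for Clec4d and 12.9 for Plaur, and all 20 were higher than in macrophage and in monocyte barcodes of each library. For Cxcl2 the lowest ratio was 15.1 against all other kept barcodes but 1.59 against monocyte barcodes. Reads of Stfa2l1 may be shared with its near-identical family members.

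S100a8 and S100a9 lie on chromosome 3 and were the genes of the rule. Their promoter windows, from 250 bases before to 50 after the RefSeq start in build GRCm38.p6, are shown because C/EBP factors are known regulators of granulocyte genes. The S100a8 window is chr3:90668821-90669120 on the plus strand and the S100a9 window chr3:90695672-90695971 on the minus strand, and capitals mark the letters TTGCNNAA searched on both strands, which stand at position 15 of the S100a9 window, counted from its 5′ end.
S100a8: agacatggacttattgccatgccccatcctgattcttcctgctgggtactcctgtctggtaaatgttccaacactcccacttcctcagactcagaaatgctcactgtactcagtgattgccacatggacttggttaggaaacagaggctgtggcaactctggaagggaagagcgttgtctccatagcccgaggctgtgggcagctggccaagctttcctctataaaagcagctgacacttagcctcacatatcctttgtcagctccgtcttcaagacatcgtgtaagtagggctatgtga
S100a9: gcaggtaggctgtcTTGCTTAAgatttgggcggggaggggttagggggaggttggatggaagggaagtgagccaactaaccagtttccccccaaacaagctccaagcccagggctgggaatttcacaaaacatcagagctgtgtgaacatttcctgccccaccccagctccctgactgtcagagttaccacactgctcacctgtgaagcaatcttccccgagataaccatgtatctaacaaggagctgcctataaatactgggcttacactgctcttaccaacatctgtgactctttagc
These letters were found in 10.8% of 32851 promoter windows in 4 of 9 windows of the late granule and secreted list, in 2 of 18 of the cytokine and chemokine list, in 1 of 21 of the NF-kB and survival list and in 0 of 15 of the receptor list. A match is a description of the letters and not a site of binding.

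Granule genes were read next because they date a neutrophil's maturation. Of the primary granule list (Mpo, Elane, Prtn3, Ctsg, Prss57 and Ms4a3), made in promyelocytes, the neutrophils held 1 UMI, of Prtn3. The secondary granule list, made in myelocytes, summed to 878, 331, 421, 1107 and 2390 CPM, most of it Hp, the haptoglobin gene, at 127 UMIs, and Camp, Chil3 and Itgb2l stood at 0. The late granule and secreted list, which holds gelatinase genes such as Mmp9 and the secreted proteins Slpi, Retnlg and Pglyrp1, was detected in all 92 and summed to 8282, 3464, 6745, 6234 and 32997 CPM. Late granule transcripts were thus present in each library while primary granule transcripts were nearly absent. The late list also holds Il1r2, at 652 UMIs over all neutrophils, beside 848 of Retnlg and 60 of Mmp9. The rule left out 3 barcodes of control day 7 and 4 of L-fuc day 7 rich in Ngp, Camp and Ltf, described below. They held 91.9% and 97.7% of the kept UMIs of these genes, so their low counts here were in part fixed by the choice of members.

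The first comparison was of abundance. Neutrophils were 0.181% of kept barcodes at day 0 (exact binomial 95% interval 0.0373 to 0.527), 0.109% in control day 7 (0.0674 to 0.166), 0.351% in L-fuc day 7 (0.254 to 0.472), 0.959% in control day 21 (0.578 to 1.49) and 0.485% in L-fuc day 21 (0.178 to 1.05). The share was 3.22 times as high under L-fuc as in control at day 7 (exact 95% interval 1.87 to 5.72) and 0.506 times at day 21 (0.165 to 1.32), an interval that includes 1. In control tumors it was 8.81 times as high at day 21 as at day 7 (4.48 to 17.2), and day 7 against day 0 gave 0.602 (0.180 to 3.15). These shares follow a CD45 sort, and the kept barcodes with a Ptprc UMI numbered 811, 5094, 4413, 783 and 489 of 1660, 19298, 12265, 1981 and 1236. Counted over barcodes with a Ptprc UMI alone, 35 neutrophils against 7 gave a ratio of 5.77 at day 7, and all 43 against all 21 over the barcodes with a Ptprc UMI gave 2.36. In the same 2 ways control day 21 over day 7 gave 16.7 and 5.89, and control day 7 over day 0 gave 0.371 and 1.11, so the latter turned direction. With at most 1 UMI of other-cell genes these were 23.4 and 0.215.

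**Figure D2:**
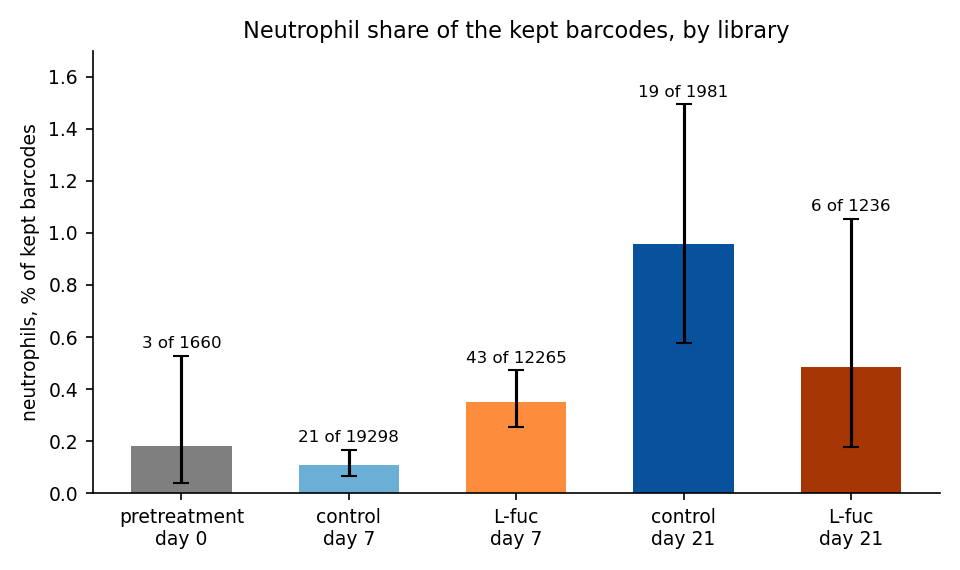
Bars show neutrophils as a percent of kept barcodes in each library (y axis, from 0), error bars the exact binomial 95% interval, and the text above each bar the neutrophils of all kept barcodes. Control day 21 stands highest at 0.959% and control day 7 lowest at 0.109%, and the intervals of control and L-fuc overlap at day 21 but not at day 7.

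Gene levels in neutrophils were then compared between L-fuc and control at day 7. Folds are ratios of summed CPM with exact 95% counting intervals, log2 values add 1 UMI to each library, and a gene was measured when the libraries compared held 30 or more UMIs together. Of 742 genes measured, 25.1% were at least 2-fold higher in L-fuc and 13.6% at least 2-fold lower, with a median log2 ratio of 0.13. In neutrophils of at most 5000 UMIs, 456 genes were measured, 20.8% were 2-fold higher, 16.0% were 2-fold lower, and the median was 0.31. Of the 4 comparisons made here, 3 use the control day 7 library, whose neutrophils held the most tumor cell UMIs and the lowest share with Ptprc, so they are not independent of each other.

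Cytokine and chemokine genes were higher under L-fuc at day 7. Of the 24 in the list 12 were measured, and 10 were at least 2-fold higher and 0 lower, with a median log2 ratio of 1.85, where 7 of 12 were higher and the median 1.40 in neutrophils of at most 5000 UMIs. Both the count and the median were also lower outside the sub-cluster led by tumor cell genes, as given below. Cxcl2, a chemokine that attracts further neutrophils through Cxcr2, was 22713, 5873, 18551, 16169 and 17980 CPM in the 5 libraries, with medians of 73, 12, 30, 37 and 53.5 UMIs per neutrophil and ranges of 0 to 61 in control day 7 and 0 to 370 in L-fuc day 7. Control day 7 was the low library and the other 4 lay within a narrow band, while single cells of the 2 day 7 libraries overlapped. The fold for Cxcl2 at day 7 was 3.16 (2.83 to 3.54). Il1b, the inflammasome cytokine, was 9537, 2173, 5733, 12271 and 15070 CPM, with 0 to 21 UMIs (median 6) per neutrophil in control day 7 and 1 to 65 (median 10) in L-fuc day 7, a fold of 2.64 (2.19 to 3.20). Ccl3, a chemokine for monocytes and T cells, was 753, 709, 3619, 3332 and 2910 CPM and 5.11-fold higher at day 7 (3.75 to 7.11), with 55.6% of the control UMIs in 1 neutrophil, and Ccl4, its close relative, was 2.61-fold higher (2.02 to 3.40).

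The other members of the list rested on fewer UMIs. Tnf was 4.55-fold higher (2.18 to 11), and the IL-1 receptor antagonist gene Il1rn 2.28-fold (1.53 to 3.47). Csf1, the macrophage growth factor, was 12.3-fold higher (4.04 to 61.3) on 65 UMIs against 3, and Cxcl1, a further Cxcr2 ligand, had 54 UMIs against 1, of which 77.8% were in 1 neutrophil. Osm, an IL-6 family cytokine, was below the 2-fold limit at 1.92-fold (0.849 to 4.89). On the log2 scale the ratios in neutrophils of at most 5000 UMIs were 1.25 for Cxcl2, 0.93 for Il1b, 1.68 for Ccl3 0.66 for Ccl4 and 0.61 for Il1rn, so Il1b, Ccl4 and Il1rn no longer reached 2-fold there. Neutrophils with at most 1 UMI of other-cell genes numbered 18 in L-fuc and 5 in control, and of 174 genes measured in them 19.0% were 2-fold higher and 9.20% lower, with a median of 0.13. Of 9 cytokines measured there 4 were 2-fold higher and the median log2 ratio was 0.84.

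**Figure D3:**
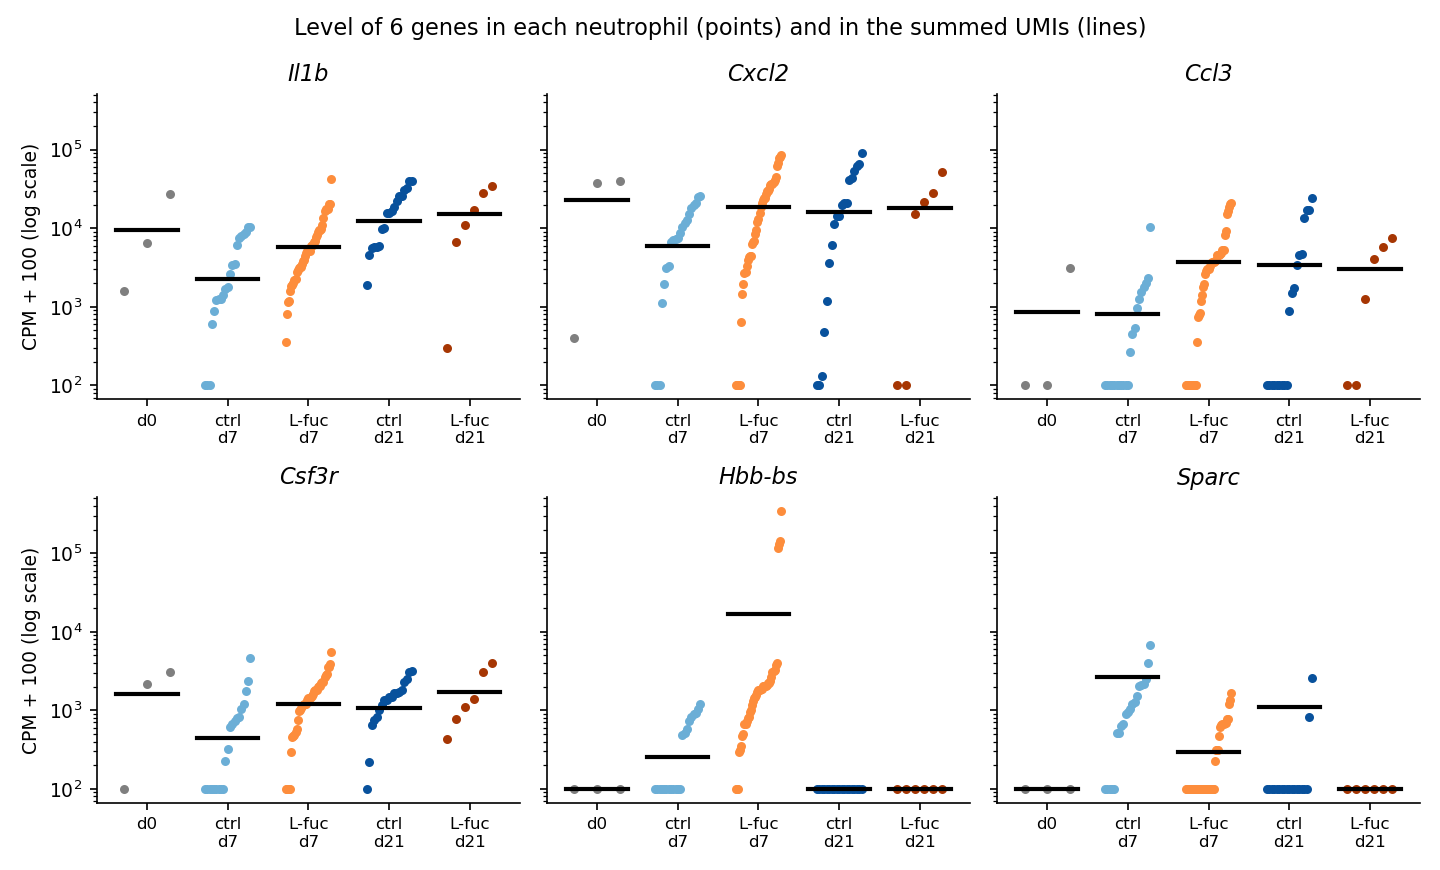
Points are single neutrophils in each library (level in CPM plus 100, log axis) for Il1b, Cxcl2, Ccl3, Csf3r, Hbb-bs and Sparc, and the line in each column is the summed level of that library. Il1b and Cxcl2 lie lowest in control day 7 (2173 and 5873 CPM), Hbb-bs is at 16536 CPM in L-fuc day 7, and Sparc is at 2566 CPM in control day 7.

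NF-kB feedback and survival genes were also higher at day 7 under L-fuc, with 6 of 7 measured (of 18) at least 2-fold higher and 0 lower and a median log2 ratio of 1.58, and with 5 of 6 higher and a median of 1.18 below 5000 UMIs. Nfkbia, which encodes the inhibitor that returns NF-kB to the cytoplasm, was 5019, 2755, 8277, 8853 and 9354 CPM. Per neutrophil it ranged from 0 to 39 UMIs (median 5) in control day 7 and from 0 to 81 (median 19) in L-fuc day 7, a fold of 3.00 (2.55 to 3.55). Nfkbiz was 3.00-fold higher (2.20 to 4.17), Tnfaip3, the ubiquitin-editing brake A20, 3.66-fold (2.55 to 5.43), and Gadd45b 2.94-fold (2.37 to 3.69). Mcl1, the BCL2 family protein on which neutrophil survival depends, was 1.92-fold higher (1.44 to 2.59) and did not reach the limit.

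Cxcl2 and Nfkbia, both textbook NF-kB targets, were the most abundant genes of the cytokine and the NF-kB lists, at 4286 and 2039 UMIs. Their promoters are shown for that abundance. They are RefSeq windows of build GRCm38.p6, from 250 bases before to 50 after the start, Cxcl2 at chr5:90903649-90903948 on the plus strand and Nfkbia at chr12:55492598-55492897 on the minus strand. Capitals mark the letters GGGA, then any 4 bases, then CC, found on either strand, at positions 154 and 155 of the Cxcl2 window, which overlap, and at positions 39 and 222 of the Nfkbia window, counted from the 5′ end.
Cxcl2: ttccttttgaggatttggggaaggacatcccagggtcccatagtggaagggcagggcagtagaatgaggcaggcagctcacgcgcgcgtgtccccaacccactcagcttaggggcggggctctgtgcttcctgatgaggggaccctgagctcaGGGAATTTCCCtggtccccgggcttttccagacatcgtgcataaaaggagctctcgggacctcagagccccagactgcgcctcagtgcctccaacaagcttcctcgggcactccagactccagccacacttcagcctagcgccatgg
Nfkbia: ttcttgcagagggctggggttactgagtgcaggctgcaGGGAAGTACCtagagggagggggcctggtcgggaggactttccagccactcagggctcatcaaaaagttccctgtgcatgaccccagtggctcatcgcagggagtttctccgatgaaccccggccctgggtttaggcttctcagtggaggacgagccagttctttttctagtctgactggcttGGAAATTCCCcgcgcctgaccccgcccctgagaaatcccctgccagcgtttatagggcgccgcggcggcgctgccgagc
The same letters were present in 20.7% of all 32851 promoter windows, in 9 of 18 windows of the cytokine and chemokine list, in 10 of 21 of the NF-kB and survival list, in 3 of 15 of the receptor list and in 1 of 9 of the late granule list. The matches describe sequence and do not show that a factor was bound.

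Receptors by which neutrophils sense growth factors and attractants followed the same direction at day 7: 6 of 8 measured (of 16) were at least 2-fold higher and 0 lower, with a median log2 ratio of 1.49, and 3 of 5 with a median of 1.25 below 5000 UMIs. Csf3r was 1506, 346, 1120, 959 and 1611 CPM, with medians of 4, 1, 3, 4 and 4 UMIs per neutrophil, and was 3.23-fold higher at day 7 (2.04 to 5.34). Its per-cell ranges overlapped fully, at 0 to 4 UMIs in control day 7 and 0 to 7 in L-fuc day 7. Ptafr, the receptor for platelet-activating factor, was 3.45-fold higher (2.02 to 6.27), Tnfrsf1b, a TNF receptor, 4.65-fold (1.99 to 13.3), and Cxcr4, the receptor that retains neutrophils in marrow, 2.73-fold (1.36 to 6.05), which fell short of 2-fold below 5000 UMIs at a log2 ratio of 0.85. C5ar1, the receptor for complement C5a, was 1.52-fold higher (0.681 to 3.71), an interval that includes 1, and Cxcr2 stood at 110 and 116 CPM.

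Of the pattern recognition and inhibitory receptor list 11 of 17 were measured and 8 were at least 2-fold higher and 0 lower, with a median log2 ratio of 1.31, which became 4 of 10 and 0.73 below 5000 UMIs and −0.08 in neutrophils with at most 1 UMI of other-cell genes. Nlrp3, the inflammasome sensor, was 4.36-fold higher (2.66 to 7.58), Clec4e 2.52-fold (1.81 to 3.56) and Tyrobp, the signalling adaptor, 2.31-fold (1.87 to 2.87). Below 5000 UMIs Clec4e and Tyrobp were at log2 ratios of 0.71 and 0.61 and did not reach 2-fold. Adhesion genes gave 4 of 5 measured (of 14) higher and 0 lower, with a median of 1.36, or 1 of 3 and 0.68 below 5000 UMIs. Icam1 was 5.78-fold higher (2.51 to 16.4) and Cd44, a hyaluronan receptor, 2.06-fold (1.30 to 3.39), or a log2 ratio of 0.68 below 5000 UMIs. Oxidase and effector enzyme genes gave 5 of 11 measured (of 16) higher and 0 lower, with a median of 0.88, and 3 of 10 and 0.72 below 5000 UMIs, led by Ncf1, a cytosolic subunit of the NADPH oxidase, at 5.62-fold (2.72 to 13.5). The late granule list gave 4 of 6 measured (of 11) higher and 1 lower, with a median of 1.18, or 2 of 4 and 0.88 below 5000 UMIs. Its lower gene was Lrg1 at 0.411-fold (0.185 to 0.887).

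**Figure D4:**
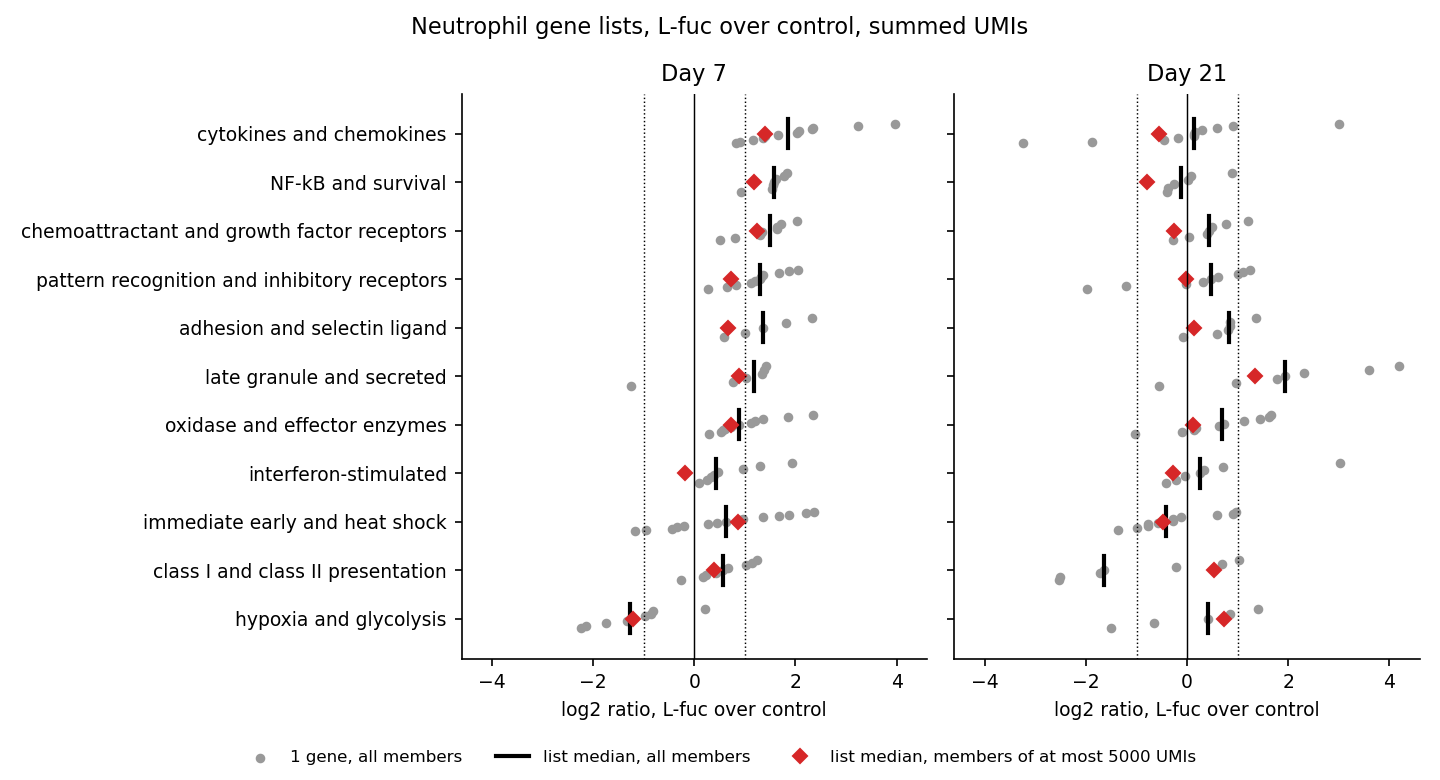
Each grey point is the log2 ratio of L-fuc over control (x axis) of 1 measured gene in a list (y axis), at day 7 and at day 21; black bars are list medians over all neutrophils, red diamonds the medians over neutrophils of at most 5000 UMIs, and dotted lines mark 2-fold. At day 7 the cytokine median is 1.85 (1.40 in the shallower cells) and the hypoxia and glycolysis median −1.28 (−1.20), and at day 21 the cytokine median is 0.14 (−0.56).

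Hypoxia and glycolysis genes had the opposite direction. Of 18 in the list 9 were measured at day 7, and 5 were at least 2-fold lower under L-fuc and 0 higher, with a median log2 ratio of −1.28, or 4 of 6 lower and −1.20 below 5000 UMIs. Ldha, lactate dehydrogenase, was 251, 1370, 403, 430 and 104 CPM, so control day 7 was the high library, and its ratio was 0.294 (0.201 to 0.426). Its range per neutrophil was 0 to 25 UMIs in control day 7 and 0 to 15 in L-fuc day 7, with medians of 1 and 0. Aldoa, aldolase, had a ratio of 0.507 (0.377 to 0.680), Eno1, enolase, 0.197 (0.0812 to 0.434), and Tpi1, triosephosphate isomerase, 0.410 (0.272 to 0.615), whereas Gapdh was 1.17 (0.828 to 1.68). Of the 236 Aldoa UMIs in all neutrophils, 161 lay in 7 barcodes led by tumor cell genes (the fifth sub-cluster described below), and outside these 2 of 6 genes of the list were lower and 0 higher, with a median of −0.91. The list summed to 4518, 8266, 4425, 3787 and 4001 CPM in neutrophils. It was 13456, 9807, 9812, 10681 and 10555 CPM in macrophage barcodes of the same libraries, 15065, 8065, 4705, 3627 and 4029 CPM in monocyte barcodes and 6356, 7731, 6686, 6299 and 6403 CPM in T cell barcodes. Control and L-fuc day 7 were thus nearly equal in macrophage barcodes, while in monocyte barcodes L-fuc day 7 was the lower, as in neutrophils.

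The remaining lists gave mixed or small differences at day 7. Of the immediate early and heat shock list, which holds stress and dissociation genes, 15 of 16 were measured with 5 higher and 1 lower and a median of 0.62, against 4 higher and 0 lower of 13 and 0.86 below 5000 UMIs. Interferon-stimulated genes gave 2 of 8 measured (of 21) higher and 0 lower, with a median of 0.43 that became −0.18 below 5000 UMIs, and Isg15, a ubiquitin-like interferon target, was 2.51-fold higher (1.82 to 3.52), or 0.72 on the log2 scale below 5000 UMIs, short of 2-fold. The list of genes known from tumor-infiltrating neutrophils gave 4 of 12 measured (of 20) higher and 3 lower with a median of 0.35, and Cd274, which encodes PD-L1, was 1.74-fold higher (0.957 to 3.36). Class I and class II presentation genes gave 3 of 9 measured (of 16) higher and 0 lower, and these 3 were H2-Aa, H2-Ab1 and H2-Eb1, the class II chains, with 34.8% of the H2-Aa UMIs of L-fuc day 7 in 1 neutrophil. Below 5000 UMIs 1 of 7 was higher and the median was 0.38, with H2-Aa at 1.07, H2-Ab1 at 0.38 and H2-Eb1 at 0.56, so the last pair no longer reached 2-fold. Their direction turned with the weighting or the rule, to a log2 ratio of −0.36 for H2-Aa in neutrophils of 20 or more S100 UMIs.

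The highest ratios at day 7 were those of globins, and Sparc and Ccn1 were among the lowest. Hbb-bs was 0, 157, 16536, 0 and 0 CPM and was 105-fold higher in L-fuc day 7 than in control day 7 (57.0 to 219), in 40 of 43 against 9 of 21 neutrophils, with 44.0% of its UMIs in 1 cell. Hba-a1, an alpha globin whose reads cannot be told apart from its copy where they match, was at 4192 against 15.7 CPM. Sparc was 0.0768-fold (0.0468 to 0.120) and Ccn1, a matrix-associated secreted factor, 0.0524-fold (0.0204 to 0.113), and 49.1% of the control Sparc UMIs were in 1 neutrophil. Irf1, a transcription factor of the interferon response, was 14.4-fold higher (4.75 to 71.4) on 76 UMIs against 3, and Atf3, a stress-response factor, 5.46-fold (3.20 to 10.0). G0s2 was 3.63-fold higher (2.82 to 4.72), Hcar2 3.69-fold (2.71 to 5.11), S100a8 1.35-fold (1.18 to 1.54) and S100a9 1.52-fold (1.37 to 1.69), the last pair within what the rule selected on.

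At day 21 the comparison rested on 6 L-fuc neutrophils against 19 in control, 1 of which held 40.1% of the control UMIs. Of 518 genes measured, 10.2% were at least 2-fold higher in L-fuc and 33.2% at least 2-fold lower, with a median log2 ratio of −0.13, and in neutrophils of at most 5000 UMIs 321 genes were measured, 7.48% higher and 14.3% lower, with a median of −0.20. Cytokines and chemokines gave 1 of 11 measured higher and 2 lower, with a median of 0.14 that turned to −0.56 below 5000 UMIs. Cxcl2 was 1.11-fold (0.985 to 1.25), Il1b 1.23-fold (1.07 to 1.40), Ccl3 0.873-fold (0.643 to 1.17) and Nfkbia 1.06-fold (0.892 to 1.25), all below the 2-fold limit. Without the deep control neutrophil their log2 ratios were −0.58 for Cxcl2, −0.35 for Il1b, −0.92 for Ccl3 and −0.60 for Nfkbia, so Cxcl2, Il1b and Nfkbia turned direction and stayed below 2-fold. The NF-kB and survival list gave 0 of 6 past the fold either way and a median of −0.12, but 2 of 6 lower and −0.79 below 5000 UMIs, where Nfkbiz and Tnfaip3 were both at −1.09. The receptor list gave 1 of 7 higher, 0 lower and 0.43, but 0 of 6 past the fold and −0.26 below 5000 UMIs. Csf3r was 1.68-fold (1.07 to 2.58), with a log2 ratio of 0.11 below 5000 UMIs. Ccl4 was 8.06-fold higher (5.74 to 11.4) with 83.5% of its L-fuc UMIs in 1 neutrophil.

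The late granule and secreted list had the highest median of the functional lists at day 21, with 5 of 7 measured higher and 0 lower and a median log2 ratio of 1.93, and with 5 of 7 higher, 1 lower and 1.34 below 5000 UMIs. Its most abundant gene, Retnlg, was 502, 1134, 1944, 1279 and 23436 CPM and 18.3-fold higher (14.8 to 22.9). The 6 L-fuc neutrophils ranged from 0 to 389 Retnlg UMIs with a median of 6, and the 19 control neutrophils from 0 to 19 with a median of 2, so the groups overlapped and 86.3% of the L-fuc UMIs came from 1 cell. That cell held 4980 UMIs, 1156 of them S100a8 or S100a9, with 5 of Ly6g, 9 of Mmp9, 38 of Ifitm1, 1 of Il1b and 0 of Cxcl2. Without it the list's median was 0.19, and in neutrophils with at most 1 UMI of other-cell genes, which leave it out, Retnlg was lower under L-fuc at a log2 ratio of −0.98. That limit left 3 L-fuc neutrophils. It counts Ifitm1, which neutrophils can express too, and all 38 other-cell UMIs of this cell were Ifitm1. In the other L-fuc neutrophils left out, Ifitm1 gave 2 of 3 and 7 of 7 such UMIs. The same cell also carried 97.8% of the UMIs of Wfdc17, 60.7% of S100a8 (4.46-fold, 4.04 to 4.93) and 56.9% of S100a9 (4.05-fold, 3.73 to 4.39). With at most 1 UMI of other-cell genes S100a8 and S100a9 turned direction too, to log2 ratios of −0.19 and −0.49. Mmp9, gelatinase B, was 4.97-fold higher (2.47 to 10.1), in 5 of 6 against 9 of 19 neutrophils, with 45.0% of the L-fuc UMIs in the same cell. Its log2 ratio below 5000 UMIs, a limit that keeps this cell, was 1.56, and without the cell Mmp9 was under the UMI limit.

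Among the lower genes at day 21, Cd14, the lipopolysaccharide co-receptor, was 9788, 1212, 1917, 5742 and 1403 CPM and 0.244-fold in L-fuc (0.159 to 0.360), with 0 to 17 UMIs (median 2) in L-fuc neutrophils and 0 to 105 (median 13) in control. Other low genes came from 1 deep control neutrophil: 98.2% of 164 Hsp90aa1 UMIs, 97.6% of 82 Sparc UMIs, and 89.4% of 47 H2-Aa UMIs. Presentation genes, 4 of 7 lower and 1 higher with a median of −1.64, accordingly gave 0 of 3 past the fold and 0.53 below 5000 UMIs. Pattern recognition genes gave 3 of 9 higher and 2 lower with a median of 0.48, against 0 of 9 higher, 2 lower and −0.02 below 5000 UMIs. Adhesion genes gave 1 of 6 higher, 0 lower and 0.83 against 0 of 6 and 0.14, and oxidase genes 4 of 10 higher, 1 lower and 0.68 against 1 of 9 higher, 1 lower and 0.12. Interferon-stimulated genes gave 1 of 7 higher, 0 lower and 0.26, which turned to −0.28 below 5000 UMIs, again with 1 of 7 higher. Hypoxia and glycolysis genes gave 1 of 5 higher, 1 lower and 0.42 against 1 of 3 higher, 0 lower and 0.72, and immediate early genes 0 of 12 higher, 2 lower and −0.42 against 0 of 10 higher, 1 lower and −0.47. Tumor-infiltrating neutrophil genes gave 1 of 8 higher, 3 lower and −0.33, against 1 of 4 higher, 1 lower and −0.35. The difference between the day 7 and the day 21 response was not tested.

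In control tumors, day 7 was compared with day 0, when 3 neutrophils were found. Of 314 genes measured, 29.6% were at least 2-fold higher at day 7 and 26.4% at least 2-fold lower, with a median log2 ratio of 0.00, and below 5000 UMIs, of 160 genes, 15.6% were higher and 28.1% lower, with a median of −0.55. Cytokines gave 1 of 7 measured higher and 5 lower (median −1.54), NF-kB genes 0 of 6 higher and 4 lower (−1.26), and pattern recognition genes 0 of 5 higher and 4 lower (−1.86), while hypoxia and glycolysis genes gave 4 of 6 higher and 0 lower (1.86). Csf3r was 0.230-fold at day 7 (0.109 to 0.510), Il1b 0.228-fold (0.171 to 0.306), Cxcl2 0.259-fold (0.216 to 0.311), Cd14 0.124-fold (0.0892 to 0.172) and Ccl6, a myeloid chemokine, 0.0465-fold (0.0201 to 0.0991). Sparc had 163 UMIs at day 7 and 0 at day 0, and below 5000 UMIs the cytokine, NF-kB and pattern recognition medians were −0.61, −0.71 and −0.99, the first 2 of them close to the −0.55 of all genes. A single gene of the hypoxia and glycolysis list, Aldoa, was measured there (2.25).

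Control day 21 against day 7 ran the other way. Of 677 genes measured, 28.7% were at least 2-fold higher at day 21 and 14.0% at least 2-fold lower, with a median of 0.31, and below 5000 UMIs, of 373 genes, 40.8% were higher and 23.6% lower, with a median of 0.68. Cytokines gave 9 of 11 higher and 0 lower (median 2.0, and 1.88 below 5000 UMIs), receptors 6 of 6 (2.07 and 1.63), NF-kB genes 5 of 6 (1.49 and 1.39) and immediate early genes 10 of 13 with 0 lower (1.71 and 2.13). Below 5000 UMIs 8 of 10 cytokines were higher and 1 was lower, Ccl4 at a log2 ratio of −1.30. Pattern recognition genes gave 7 of 9 higher (1.20 and 1.42), adhesion genes 4 of 5 (1.87 and 1.47), oxidase genes 6 of 11 (1.04 and 1.53) and interferon-stimulated genes 4 of 8 with 1 lower (1.04 and 0.86, the latter close to the 0.68 of all genes). Il1b was 5.65-fold higher (4.72 to 6.80), with 7 to 137 UMIs (median 53) in each of the 19 neutrophils at day 21 against 0 to 21 (median 6) at day 7, so it was detected in every neutrophil at day 21. G0s2 was 7.55-fold higher (5.92 to 9.76), and Dusp1, a phosphatase induced by stress and glucocorticoid, and Zfp36, which destabilizes cytokine mRNA, were 8.27-fold (5.95 to 11.8) and 7.98-fold higher (6.23 to 10.4).

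Cxcr2, the chemokine receptor of circulating neutrophils, was among the genes higher at day 21. It was 126, 110, 116, 529 and 676 CPM in the 5 libraries and 4.80-fold higher in control day 21 than in control day 7 (2.14 to 12.6), in 12 of 19 against 5 of 21 neutrophils, whose median depths were 2835 and 1754 UMIs. With each cell thinned to 500 UMIs the numbers were 5 of 19 against 1 of 21, and at 1000 UMIs 3 of 17 against 3 of 19. Cxcr2 was thus highest in CPM in the day 21 libraries, at low counts, and its share of cells was not higher at a depth of 1000 UMIs beyond counting error. Csf2ra, a GM-CSF receptor chain, was 6.25-fold higher (2.47 to 20.3), C5ar1 4.86-fold (2.39 to 11.2), and Hp 11.9-fold (4.42 to 45.1) on 61 UMIs against 4. Hypoxia and glycolysis genes gave 6 of 9 lower and 0 higher (median −1.65, and −1.92 below 5000 UMIs), with Ldha at 0.314-fold (0.206 to 0.470), Aldoa 0.302-fold (0.203 to 0.440) and Tpi1 0.205-fold (0.110 to 0.360).

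To compare shares of cells at equal depth, each neutrophil was thinned to 500 UMIs, which left out none, at median gene numbers of 269, 309, 272, 271 and 267. An Il1b UMI was then present in 2 of 3, 14 of 21, 38 of 43, 18 of 19 and 6 of 6 neutrophils, and before thinning in 3, 18, 43, 19 and 6. A Ccl3 UMI was present in 0, 4, 26, 8 and 3 after thinning, or 19.0% of control and 60.5% of L-fuc neutrophils at day 7, and in 1, 10, 33, 10 and 4 before. A Csf3r UMI was found in 2, 4, 21, 8 and 4, G0s2 in 2, 8, 23, 12 and 5, and Cxcl2 in 2, 16, 33, 13 and 4. A Cxcl2 UMI was thus about as common in control day 7 as in L-fuc day 7, and the summed level differed. Sparc was found in 0, 8, 5, 1 and 0 and Hbb-bs in 0, 4, 24, 0 and 0, so these transcripts were spread over several neutrophils of the day 7 libraries.

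Neutrophils varied among themselves in ways that followed the libraries. Clustering of the 92 gave 5 sub-clusters, described here with no test. The first, of 26 cells with a median of 2551.5 UMIs, was led by Retnlg, Pygl, Stfa2l1, Hp and G0s2, and held 2, 0, 5, 15 and 4 neutrophils of the 5 libraries. Retnlg was found in 18 of the 26, and 389 of its 572 UMIs there lay in the 1 cell of L-fuc day 21 described above. The second, of 25 cells with a median of 1490 UMIs, was led by Gm42418 and held 0, 12, 12, 1 and 0. The third, of 17, was led by globins with Ccl4, Hmox1 and Clec4e and held 0, 0, 15, 1 and 1. The fourth, of 17, was led by Hspa1a, Ighm, Plac8, H2-Aa and Cd74 and held 1, 4, 10, 1 and 1. The fifth, of 7 cells with a median of 8742 UMIs, was led by Ccn1, Tinagl1, Cryab and Sparc and held 0, 5, 1, 1 and 0. Its Sparc level was 2766 CPM against 203 in the other sub-clusters and its Csf3r level 135 against 1272 CPM, so Csf3r was low there. S100a9 was 2227 against 21047 CPM and Retnlg 171 against 4129 CPM, and the median barcode held 32 UMIs of other-cell genes. These pooled levels go against the neutrophil label, but the 7 barcodes were not alike. The shallowest, of control day 7, held 43 S100 UMIs of 2104 with 38 of Cxcl2, 3 of Il1r2 and 5 of other-cell genes, and the 1 of L-fuc day 7 held 5 UMIs of Csf3r, 14 of Il1r2 and 24 of Il1b. The label was also less well borne out in the fourth sub-cluster, whose leading 10 genes included no neutrophil gene and in which Csf3r was 550 against 1042 CPM and S100a9 8327 against 17434 CPM in the others. In the 85 members outside the fifth, where 13.8% of 544 genes measured at day 7 were 2-fold higher and 6.80% lower, cytokines gave 6 of 12 higher and a median of 1.10.

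**Figure D5:**
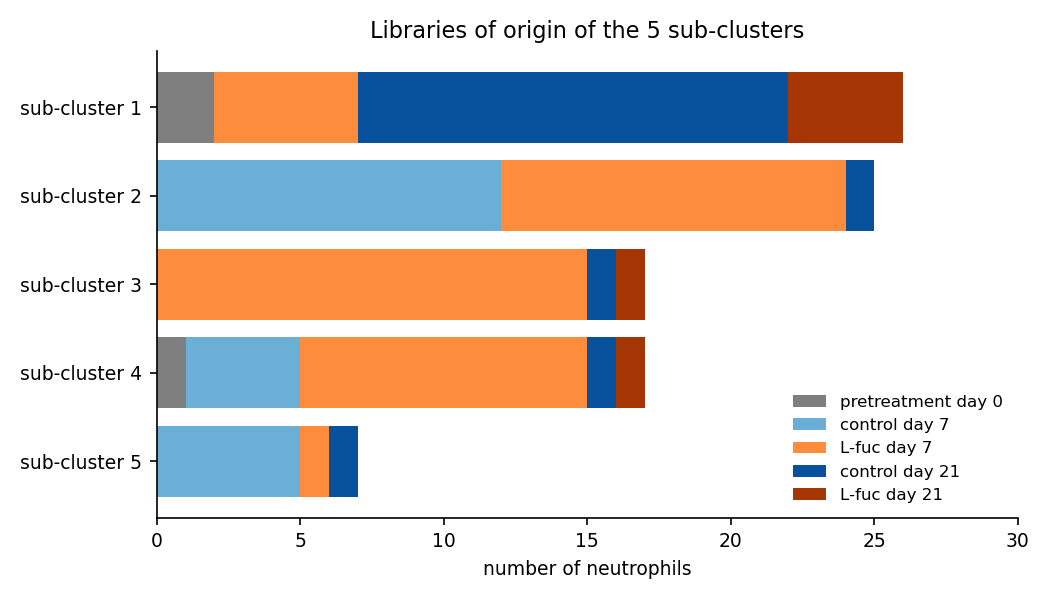
Stacked bars give the number of neutrophils (x axis) in each of the 5 sub-clusters (y axis), colored by library. Sub-cluster 1 holds 15 of the 19 neutrophils of control day 21, sub-cluster 3 holds 15 of the 43 of L-fuc day 7, and sub-cluster 5 holds 5 of the 21 of control day 7.

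Genes by which a cell makes or salvages GDP-fucose, or attaches or removes fucose, were read last, since L-fuc was the treatment. The fucose list of 18 symbols, 16 of them in the matrix, summed to 251, 142, 179, 406 and 572 CPM in neutrophils and to 362, 333, 309, 365 and 350 CPM in macrophage barcodes. None of these reached the UMI limit in any of the comparisons, and the most abundant, Fuca1, the lysosomal enzyme that removes fucose, had 22 UMIs. Fcsk, the kinase of the salvage pathway, Slc35c1, the Golgi transporter of GDP-fucose, and the fucosyltransferase genes Fut1, Fut7 and Fut10 were at 0. Differences in this pathway between L-fuc and control were not detectable in neutrophils at this depth.

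Set beside macrophage barcodes of the same libraries, the levels of the leading lists differed in how they varied between libraries. The cytokine list summed to 40407, 12107, 36834, 39125 and 49210 CPM in neutrophils and to 12373, 6901, 8278, 12762 and 9972 CPM in macrophage barcodes. In monocyte barcodes it was 47880, 6802, 5710, 2634 and 1326 CPM, in T cell barcodes 7951, 3590, 6175, 13782 and 1214.5 CPM, and in all other kept barcodes 7965, 1748, 3819, 6003 and 4627 CPM. Control day 7 was thus the lowest library in all other kept barcodes together, but not in monocyte or T cell barcodes. The NF-kB and survival list summed to 22211, 7652, 21839, 21849 and 22137 CPM against 4192, 2608, 2779, 4628 and 4269 CPM, and the receptor list to 5270, 1716, 4452, 5226 and 7535 CPM against 1049, 655, 712, 1074 and 1050 CPM. In neutrophils the control day 7 library was the lowest of the 5 for these 3 lists, and it was also the lowest in macrophage barcodes, by a smaller ratio to the other libraries.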

How the data were processed

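CD45+ cells sorted from pooled SW1 tumors were profiled by droplet scRNAseq in 5 libraries, each with a matched T cell receptor library. The authors deposited raw UMI counts per gene and barcode, filtered to cell barcodes by Cell Ranger (3.0 in the submitters' processing notes, 7.1.0 in the matrix headers) on mm10, and tables of receptor contigs, of which only the barcodes were used, as marks of T cells. Replicates were pooled before sequencing, and no barcode annotation was used.

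Neutrophils were selected from the raw counts by the rule given above. Other cell types were taken by similar gates on marker genes. The members and gene lists were chosen with earlier results of these data known. UMIs were summed over the neutrophils of a library, divided by their total and set between libraries as a log2 ratio with a pseudocount of 1 UMI, for genes with 30 or more UMIs in the libraries compared. With 1 library per condition no test was made. Ratios carry exact conditional 95% intervals and shares exact Clopper-Pearson 95% intervals, which cover counting error only. Genes named are list members, the 20 leading genes and the 10 highest and 10 lowest ratios of a comparison. No doublet caller was run. Values of some list genes are not reported here. Sub-clusters came from Leiden clustering in scanpy 1.11.5 with igraph 0.11.9. Alternatives changed the rule, the scaling, the pseudocount, the UMI minimum and the depth used for thinning, and the scripts were tested on simulated data. Calculations used pandas 2.3.3 and numpy 2.4.6 under Python 3.11.15, intervals came from scipy 1.17.1, and plots from matplotlib 3.10.9.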

Additional observations from a re-analysis of the deposited data

Results flagged for a closer look

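Among 87 list genes measured at both times, 7 were at least 2-fold different between L-fuc and control in opposite directions at day 7 and day 21, and this difference was not tested. These are 8.05% of the list genes, against 2.77% (13 of 470) of all genes measured at both times. On the log2 scale of L-fuc over control, Clec4e was 1.31 at day 7 and −1.20 at day 21, Cxcl1 3.97 and −3.24, and Thbs1, thrombospondin, 2.08 and −1.87. The class II genes H2-Aa (1.14 and −2.51), H2-Ab1 (1.24 and −1.73) and H2-Eb1 (1.03 and −2.54) showed the same pattern, and Lrg1 showed the reverse at −1.25 and 1.93. Most of these values rested on few cells. At day 21, 1 control neutrophil held 89.4% of the H2-Aa UMIs, the 39 control UMIs of Cxcl1 lay in 2 neutrophils (84.6% in 1) against 0 UMIs in L-fuc, and the 30 control UMIs of Thbs1 lay in 2 neutrophils (56.7% in 1). Clec4e was 0.71 at day 7 in neutrophils of at most 5000 UMIs, below 2-fold, as were H2-Ab1 (0.38) and H2-Eb1 (0.56), while H2-Aa was 1.07.

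The secondary granule genes Ngp, Camp and Ltf were abundant in a few kept barcodes outside the neutrophil rule. In control day 7, 3 barcodes held 1096 of 1193 kept UMIs of these genes (91.9%), and in L-fuc day 7, 4 barcodes held 3659 of 3744 (97.7%), while the other libraries held 1, 3 and 1 UMIs over all kept barcodes. These 7 barcodes carried 565 to 2180 UMIs of S100a8 plus S100a9 and were left out by their Cd3 or C1q UMIs.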

How the results depend on the processing

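Counts of genes past the fold changed most with the settings, against main counts higher and lower of 186 and 101 (L-fuc over control, day 7), 53 and 172 (day 21), 93 and 83 (control day 7 over day 0) and 194 and 95 (control day 21 over day 7). These were of 742, 518, 314 and 677 genes measured. Settings that change the members or the UMI minimum also change the number measured, so a lower count need not be a lower share. A minimum of 10 UMIs gave 397 and 511, 232 and 439, 189 and 301, and 503 and 374 in that order. At most 1 UMI of other-cell genes gave 33 and 16, 16 and 29, 2 and 15, and 64 and 17, the first pair of 174 genes (19.0% and 9.20%). Neutrophils of 20 or more S100 UMIs gave 84 and 31 at day 7, 49 lower for day 7 over day 0, and 119 and 56 for day 21 over day 7. Limits of at most 5000 UMIs, chosen after seeing the data, gave 95 higher of 456 genes at day 7 (20.8% against 25.1%). They gave 24 and 46 of 321 at day 21 (7.48% and 14.3%) and 25 and 45 of 160 for day 7 over day 0 (15.6% and 28.1%). For control day 21 over day 7 the higher count fell to 152 of 373 while the share rose from 28.7% to 40.8%. Leaving out the sub-cluster led by tumor cell genes, also chosen after seeing the data, gave 75 and 37, 24 and 46, and 14 and 36, the first pair of 544 genes (13.8% and 6.80%). A pseudocount of 5 UMIs gave 90 lower at day 21 and 20 higher for day 7 over day 0. CPM without S100, mt-, ribosomal, Malat1 and hemoglobin genes gave 103 lower at day 21 and 58 lower for day 21 over day 7. The mean of each barcode's CPM gave 30 and 99 at day 21 and 224 lower for day 21 over day 7, and scaling to a median log2 ratio of 0 gave 149 lower there.

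Share ratios over all alternatives ran from 2.36 to 5.77 (day 7), 0.401 to 0.759 (day 21), 0.215 to 1.11 (control day 7 over day 0) and 5.89 to 23.4 (control day 21 over day 7). The day 7 ratio of 5.77 was counted over barcodes with a Ptprc UMI, the 2.36 with all neutrophils over those barcodes, and the 23.4 came from at most 1 UMI of other-cell genes. At 1000 UMIs per cell, a depth that left out 2 control day 21 neutrophils, an Il1b UMI was present in 17 of 17 there (100%). The direction turned in several lists and genes. With at most 1 UMI of other-cell genes the pattern recognition list at day 7 was −0.0764, and at day 21 the late granule list was −0.98, the presentation list 0.40, the extended neutrophil markers −0.38, Retnlg −0.98, S100a8 −0.19 and S100a9 −0.49. At day 21 that limit left out L-fuc neutrophils through Ifitm1, which neutrophils can express too. The presentation list at day 21 was 0.53 at most 5000 UMIs and 0.53 outside the tumor-led sub-cluster. At most 5000 UMIs the day 21 medians of cytokines (0.14 to −0.56), receptors (0.43 to −0.26), pattern recognition genes (0.48 to −0.02) and interferon-stimulated genes (0.26 to −0.28) also changed sign, as did Cxcl2, Il1b and Nfkbia, all below 2-fold in both. With 20 or more S100 UMIs H2-Aa at day 7 was −0.36 and the presentation list for day 7 over day 0 was 1.45. As a mean of each barcode's CPM, H2-Ab1 and H2-Eb1 at day 7 were −0.0826 and −0.0750. The cause was not tested in any of these.

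No paired analysis was possible because each condition is 1 library and the labels give no shared replicate of separate animals. The day 0 and L-fuc day 21 values rest on 3 and 6 neutrophils, and leaving out a replicate was not possible with 1 library a group.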
